A study of Mus musculus with 12 samples.

Results

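The genes described here are the mouse members of the Slc4a, Slc9a, Slc12a and Slc26a families, the bicarbonate transporters, sodium-proton exchangers, cation-chloride cotransporters and multifunctional anion exchangers of the plasma and organelle membranes. They were chosen by gene symbol alone: every gene of the deposited expression table whose symbol is one of these 4 family names followed by a number. This took 39 of the 48034 genes in the table, 10 of the Slc4a family, 9 of Slc9a, 9 of Slc12a and 11 of Slc26a. Of the 39, 19 entered the test by an FPKM (fragments per kilobase of gene, scaled to the depth of the library) of 1 or more in 3 or more of the 12 libraries, and 20 did not. The 19 comprise 5 Slc4a, 4 Slc9a, 6 Slc12a and 4 Slc26a genes. Slc26a4 passed this filter through its mifepristone plus NaCl libraries alone, so a difference between groups was built into its inclusion, and counts over the 19 genes include it.

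Poly(A) RNA was sequenced from subclone 53a of IMCD3, a cell line from the mouse inner medulla with features of its collecting duct. The 4 groups of 3 libraries (A, B and C) were mifepristone with 100 mM added NaCl, mifepristone, vehicle with 100 mM added NaCl, and vehicle. It is known of the study that mifepristone induces, in this subclone, a mutant transcription factor that blocks its normal counterpart in the tubule epithelium, so the vehicle cells carry the uninduced construct too. All groups come from 1 subclone, no cells without the construct were among the libraries, and mifepristone itself cannot be told apart from the mutant. The labels do not say whether the libraries of a group are separate cultures, so the p-values speak of spread among these libraries, and that spread may be technical.

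These transporters set the pH, volume and salt content of the cell and carry salt, acid and base across epithelia. In the collecting duct, the sodium-potassium-chloride cotransporter NKCC1 (Slc12a2) loads chloride across the basolateral membrane and the exchanger AE2 (Slc4a2) trades chloride for bicarbonate, and the sodium-proton exchangers of the Slc9a family expel protons for sodium. The potassium-chloride cotransporters KCC1 and KCC4 (Slc12a4 and Slc12a7) let chloride out with potassium and act in volume decrease, whereas NKCC1 acts in volume increase after cells shrink in hypertonic medium. Pendrin (Slc26a4) exchanges chloride for bicarbonate in the apical membrane of intercalated cells, and SLC4A11 carries protons or hydroxide and is known from human corneal endothelial dystrophy.

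The promoters of 3 of the 4 genes that changed at least 2-fold in a comparison, on the log2(FPKM + 0.5) scale used below, are shown, as the DNA beside the starts of the transcripts whose levels are compared below. They are the 250 bases before the start of Slc26a4 (chr12:31559985-31560234, minus strand), Slc12a4 (chr8:105966116-105966365, minus strand) and Slc4a8 (chr15:100761497-100761746, plus strand), from RefSeq on GRCm38.p6, written 5′ to 3′. Capitals mark, on either strand, the TATA box letters TATAAA, the CCAAT box letters CCAAT, the GC box letters GGGCGG and the tonicity element core TGGAAA.
Slc26a4: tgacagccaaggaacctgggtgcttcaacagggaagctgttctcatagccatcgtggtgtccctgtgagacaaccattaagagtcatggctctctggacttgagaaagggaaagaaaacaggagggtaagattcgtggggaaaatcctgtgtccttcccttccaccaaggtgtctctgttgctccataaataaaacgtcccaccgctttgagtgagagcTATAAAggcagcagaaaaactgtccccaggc
Slc12a4: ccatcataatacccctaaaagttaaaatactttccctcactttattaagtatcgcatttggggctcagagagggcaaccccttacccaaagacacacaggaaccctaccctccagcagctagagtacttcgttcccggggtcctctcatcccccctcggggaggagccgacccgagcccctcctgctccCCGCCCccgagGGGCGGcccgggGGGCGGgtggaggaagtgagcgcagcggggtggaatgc
Slc4a8: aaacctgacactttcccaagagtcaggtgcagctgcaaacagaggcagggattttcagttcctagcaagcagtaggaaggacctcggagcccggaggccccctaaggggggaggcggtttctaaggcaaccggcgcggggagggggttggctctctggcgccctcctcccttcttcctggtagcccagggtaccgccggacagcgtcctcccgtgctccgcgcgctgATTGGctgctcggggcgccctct

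The Slc26a4 sequence holds 1 TATA box, at position -31 from the start, and no GC box. The Slc12a4 sequence holds 3 GC boxes and no TATA box, and the Slc4a8 sequence holds 1 CCAAT box, read on the opposite strand. None of the 3 sequences holds the tonicity element core, the short stretch bound by the hypertonic response factor NFAT5. Over windows of 300 bases (250 before to 50 after the start) RefSeq gave 35 for 27 of the 39 genes. Of these, 9 held a TATA box (25.7%, against 13.6% of all 32851 windows), 15 a CCAAT box (42.9% against 37.4%), 18 a GC box (51.4% against 35.7%) and 5 the tonicity element core (14.3% against 21.4%). These are matches of letters, not sites of binding.

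By level, these families were led by Slc12a2. It stood at 24.4, 24.8 and 25.3 FPKM in mifepristone plus NaCl libraries and 25.7, 25.9 and 22.8 FPKM in mifepristone libraries, against 25.9, 25.7 and 26.8 FPKM in vehicle plus NaCl libraries and 23.2, 23.7 and 23.4 FPKM in vehicle libraries. The groups lie within a narrow band, and Slc12a2 ranked first in each of the 4 groups. In vehicle cells Slc4a11 came next with 22.0 ± 1.73 FPKM (SD, n = 3), in a range that overlaps that of Slc12a2. With vehicle and NaCl these ranges overlap as well. In vehicle cells Slc4a2 (16.7 ± 1.06 FPKM), Slc12a7 (9.28 ± 0.516 FPKM), Slc12a4 (8.73 ± 0.301 FPKM) and Slc9a5 (8.17 ± 0.485 FPKM) followed. The ranges of Slc12a7 and Slc12a4 overlap.

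The order changed with mifepristone. In mifepristone cells Slc4a11 ranked 8, at 4.16 ± 0.266 FPKM. With mifepristone and NaCl, Slc4a2 (11.96 ± 0.468 FPKM) and Slc4a7 (9.54 ± 0.434 FPKM) followed Slc12a2. Slc4a11 (5.55 ± 0.309 FPKM), Slc9a8 (5.23 ± 0.273 FPKM), Slc4a8 (5.14 ± 0.374 FPKM) and Slc12a9 (5.12 ± 0.315 FPKM) stood lower, in ranges that overlap from each to the next. Summed over its 10 genes, the Slc4a family held 36.6 ± 1.70 FPKM with mifepristone and NaCl and 31.7 ± 2.78 FPKM with mifepristone, against 56.6 ± 2.31 FPKM with vehicle and NaCl and 48.3 ± 3.29 FPKM with vehicle. Of these sums Slc4a11 alone held 5.55 and 4.16 FPKM, against 25.3 and 22.0 FPKM. Among the other tested Slc4a genes, Slc4a3, Slc4a7 and Slc4a8 stood higher with mifepristone in both media and Slc4a2 lower, as given below.

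**Figure D1:**
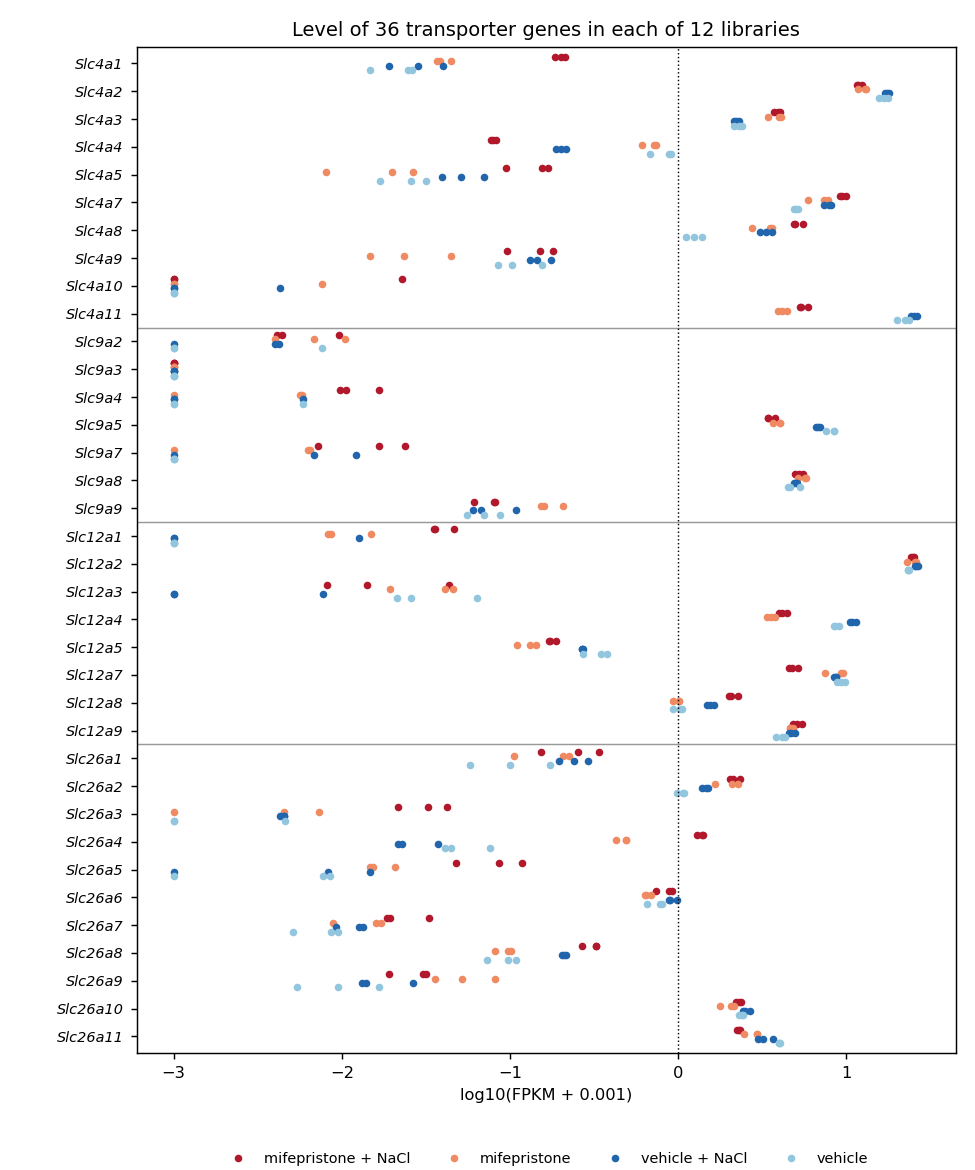
Level of 36 of the 39 genes in each library, as log10(FPKM + 0.001) on the x axis, with a point per library coloured by group, grey lines between the families and a dotted line at an FPKM of 1. Slc12a2 lies at the right in each group, Slc4a11 splits into a mifepristone and a vehicle cluster, and Slc9a3 lies at the left edge in all 12 libraries.

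Libraries held 41940955 to 49270776 reads in genes, recovered from the deposited values, and the upper limit for a gene without reads (3 reads) is 0.0609 to 0.0715 CPM, counts per 1000000 reads. Within groups the libraries did not place evenly over the 19 tested genes: mifepristone C was the lowest of its group for 14 of them, vehicle A for 15 and vehicle plus NaCl A for 13, and mifepristone plus NaCl C was the highest of its group for 14. The part of these libraries in the results was not tested beyond leaving them out, and values without 1 of them stand beside most of the calls they change. The cells carried the epithelial markers (9 of 9 past the filter). Of the intercalated cell markers 0 of 8 passed the filter and their defining factor Foxi1 had 0 or 1 read per library. Of the principal cell markers 2 of 10 passed, Hsd11b2 at 0.367 to 10.3 and Scnn1a at 0.341 to 2.235 FPKM per library. The water channel gene Aqp2 had 0 to 6 reads per library. Summed, the principal cell markers held 11.2 to 12.6 FPKM with mifepristone and NaCl and 10.6 to 11.4 FPKM with mifepristone. With vehicle and NaCl they held 1.595 to 1.84 FPKM, and with vehicle 2.55 to 2.68 FPKM. The part of this difference in the results was not tested. In bulk RNA, fewer cells that express a gene and less RNA of it per cell cannot be told apart.

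Mifepristone was compared with vehicle without added NaCl to ask which transporters change when the mutant is switched on. Slc4a11 and the potassium-chloride cotransporter gene Slc12a4 fell, Slc9a5 fell by about 2-fold, and the sodium-driven chloride-bicarbonate exchanger gene Slc4a8 rose. Of the 19 tested genes, 7 rose and 9 fell at an adjusted p under 0.05 (limma). Over all 14044 genes tested, 28.3% were called higher and 31.5% lower, and 6.42% were called with at least a 2-fold change, against 3 of the 19. With a pseudocount of 0.1, and by voom (limma on reads recovered from the deposited values), 5 of the 19 changed at least 2-fold. The median log2 fold change was -0.08 over the 19 genes and -0.01 over all genes.

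Slc4a11 (ENSMUSG00000074796, chr2:130684113-130697519, minus strand, GRCm38) had 4.14, 4.44 and 3.91 FPKM in mifepristone libraries, against 20.2, 22.3 and 23.6 FPKM in vehicle libraries. The groups stand far apart, with no mifepristone library near any vehicle library. This was 4.83-fold lower (log2 fold change -2.27, SE 0.065, adjusted p = 2.75e-10). Slc12a4 (KCC1, chr8:105943590-105966097, minus strand) had 3.37, 3.79 and 3.55 FPKM in mifepristone libraries, against 8.502, 8.61 and 9.07 FPKM in vehicle libraries. It was 2.27-fold lower (-1.18, SE 0.053, adjusted p = 8.12e-09), and the groups do not overlap. In its exons 8.44% of bases overlap an antisense gene, whose reads may not be separable since the use of strand in counting is not given.

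Slc4a8 (NDCBE, chr15:100761747-100823968, plus strand) had 3.60, 3.52 and 2.76 FPKM in mifepristone libraries, against 1.11, 1.24 and 1.39 FPKM in vehicle libraries. It was 2.16-fold higher (log2 fold change 1.11, SE 0.096, adjusted p = 1.87e-06), with mifepristone C the lowest of its group but above every vehicle library. Among the other bicarbonate transporters, Slc4a3 (AE3) rose 1.56-fold (0.64, SE 0.063) and Slc4a7 (NBCn1, a sodium-bicarbonate cotransporter) 1.35-fold (0.44, SE 0.081). Slc4a2 (AE2) fell, with 13.0, 13.2 and 11.8 FPKM in mifepristone libraries, against 15.6, 16.7 and 17.7 FPKM in vehicle libraries (1.31-fold, -0.39, SE 0.054). Its exons overlap those of Fastk and Gm22333 on the opposite strand over 13.7% of their bases.

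Of the sodium-proton exchanger genes, Slc9a5 (NHE5) fell 1.96-fold on this scale (log2 fold change -0.97, SE 0.057) and 2.08-fold by voom, at 3.93 ± 0.227 FPKM with mifepristone and 8.17 ± 0.485 FPKM with vehicle. Slc9a8 (NHE8, of the Golgi) rose 1.13-fold (0.18, adjusted p = 0.0277), a call lost without vehicle A (0.14, adjusted p = 0.104) or B (0.16, adjusted p = 0.0928) or mifepristone A (0.16, adjusted p = 0.0788) or B (0.15, adjusted p = 0.0963).

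Of the cation-chloride cotransporter family, Slc12a9, which encodes a protein that interacts with the cotransporters, rose 1.13-fold (0.18, adjusted p = 0.0183), a call lost without vehicle A (0.13, adjusted p = 0.0747). Slc12a2 (0.08, adjusted p = 0.153), Slc12a7 (KCC4, -0.08, adjusted p = 0.419) and Slc12a8 (-0.02, adjusted p = 0.825), a relative of the cotransporters, did not pass the test. Without mifepristone C, Slc12a2 passed at 0.14 (adjusted p = 0.0023). Of the anion exchangers, the sulfate transporter gene Slc26a2 rose 1.61-fold (0.69, SE 0.086), at 2.005 ± 0.311 FPKM with mifepristone and 1.05 ± 0.0567 FPKM with vehicle. Slc26a11 had 2.45, 2.96 and 2.94 FPKM in mifepristone libraries, against 3.96, 3.99 and 4.02 FPKM in vehicle libraries, and fell 1.37-fold (-0.46, SE 0.073). Slc26a10 fell 1.15-fold (-0.21, SE 0.062), with 17.8% of its exon bases shared with B4galnt1 on the opposite strand.

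**Figure D2:**
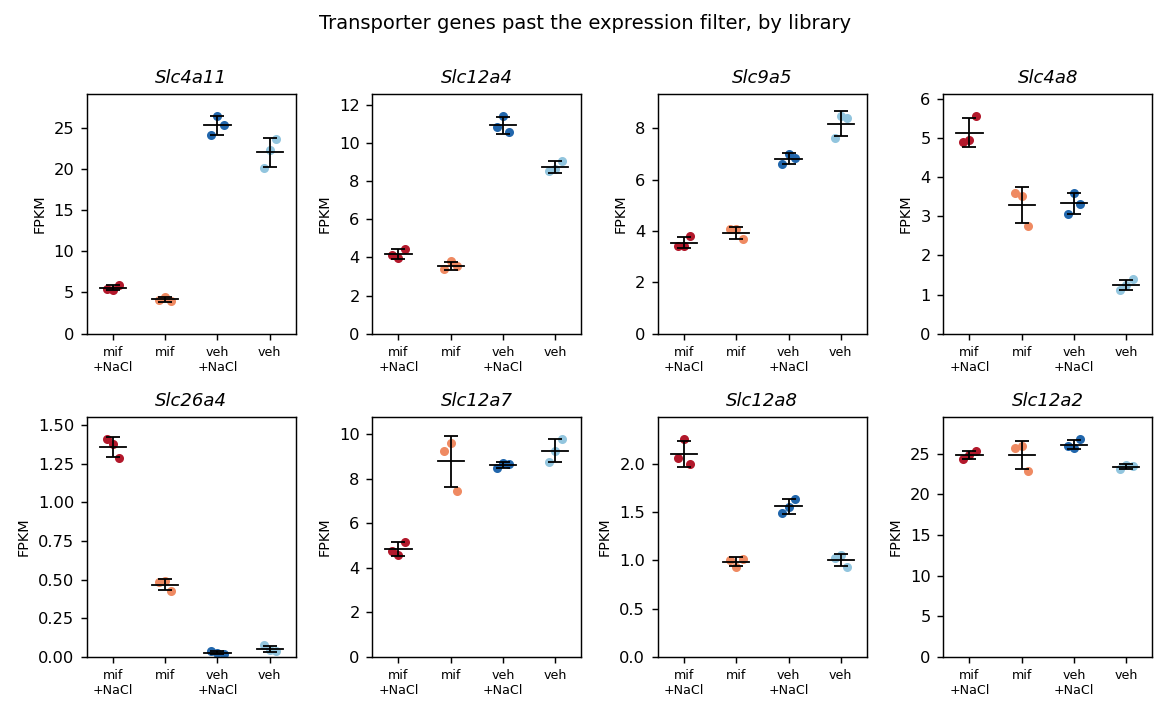
FPKM in each library of 8 genes past the filter, with groups on the x axis, points for libraries, wide lines for the mean and bars for the SD of 3 libraries. Slc4a11, Slc12a4 and Slc9a5 are low in both mifepristone groups, Slc4a8 is lowest in vehicle cells, Slc26a4 is highest with mifepristone and NaCl, Slc12a7 is lowest and Slc12a8 highest in that group, and Slc12a2 stays between 22.8 and 26.8 FPKM.

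The same comparison was made with 100 mM NaCl in the medium of all cells. It shares no library with the comparison without NaCl, but both take their spread from all 12 libraries. Of the 19 genes, 6 rose and 9 fell, against 26.8% and 31.9% of all genes tested, and 3 changed at least 2-fold, against 6.66%. The median log2 fold change was -0.12 over the 19 genes and -0.03 over all genes. The members called in both comparisons had the same direction. Of them 5 rose in both (Slc4a3, Slc4a7, Slc4a8, Slc26a2 and Slc26a4) and 8 fell in both (Slc4a2, Slc4a11, Slc9a5, Slc12a4 and Slc26a11 among them), and 0 were called in opposite directions. The shares of all tested genes called in both were not taken, so these counts are not read as particular to these genes.

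With NaCl, Slc4a11 had 5.42, 5.33 and 5.90 FPKM in mifepristone libraries, against 24.1, 26.4 and 25.4 FPKM in vehicle libraries, 4.27-fold lower (log2 fold change -2.09, SE 0.065, adjusted p = 4.26e-10). Slc12a4 had 4.13, 3.96 and 4.45 FPKM in mifepristone libraries, against 10.8, 11.4 and 10.6 FPKM in vehicle libraries, 2.44-fold lower (-1.29, SE 0.053, adjusted p = 3.46e-09). Both genes thus stood apart from vehicle with salt as without it. Slc9a5 fell 1.81-fold (-0.86, SE 0.057) and Slc4a2 1.45-fold (-0.53, SE 0.054), the last at 11.8, 11.6 and 12.5 FPKM in mifepristone libraries and 17.0, 18.1 and 17.5 FPKM in vehicle libraries.

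Slc12a7 (KCC4, chr13:73733094-73816754, plus strand) fell 1.71-fold (log2 fold change -0.78, SE 0.081), at 4.84 ± 0.309 FPKM with mifepristone and 8.63 ± 0.119 FPKM with vehicle. Slc26a11 fell 1.35-fold (-0.44, SE 0.073), with 2.24, 2.34 and 2.29 FPKM in mifepristone libraries, against 2.98, 3.204 and 3.66 FPKM in vehicle libraries. Among the genes that rose, Slc4a3 was 1.62-fold (0.69, SE 0.063), Slc26a2 1.36-fold (0.45, SE 0.086), Slc12a8 1.26-fold (0.34, SE 0.060) and Slc4a7 1.21-fold (0.28, SE 0.081) higher. Slc4a8 had 4.89, 4.95 and 5.57 FPKM in mifepristone libraries, against 3.07, 3.60 and 3.33 FPKM in vehicle libraries, 1.47-fold higher (0.56, SE 0.096). Slc12a2 (-0.07, adjusted p = 0.201), Slc9a8, Slc12a9 and Slc26a10 did not pass the test. Without mifepristone C, which lends only its spread to this contrast, Slc12a2 passed at -0.07 (adjusted p = 0.0384), and Slc26a10 passed without mifepristone A (-0.12, adjusted p = 0.047).

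**Figure D3:**
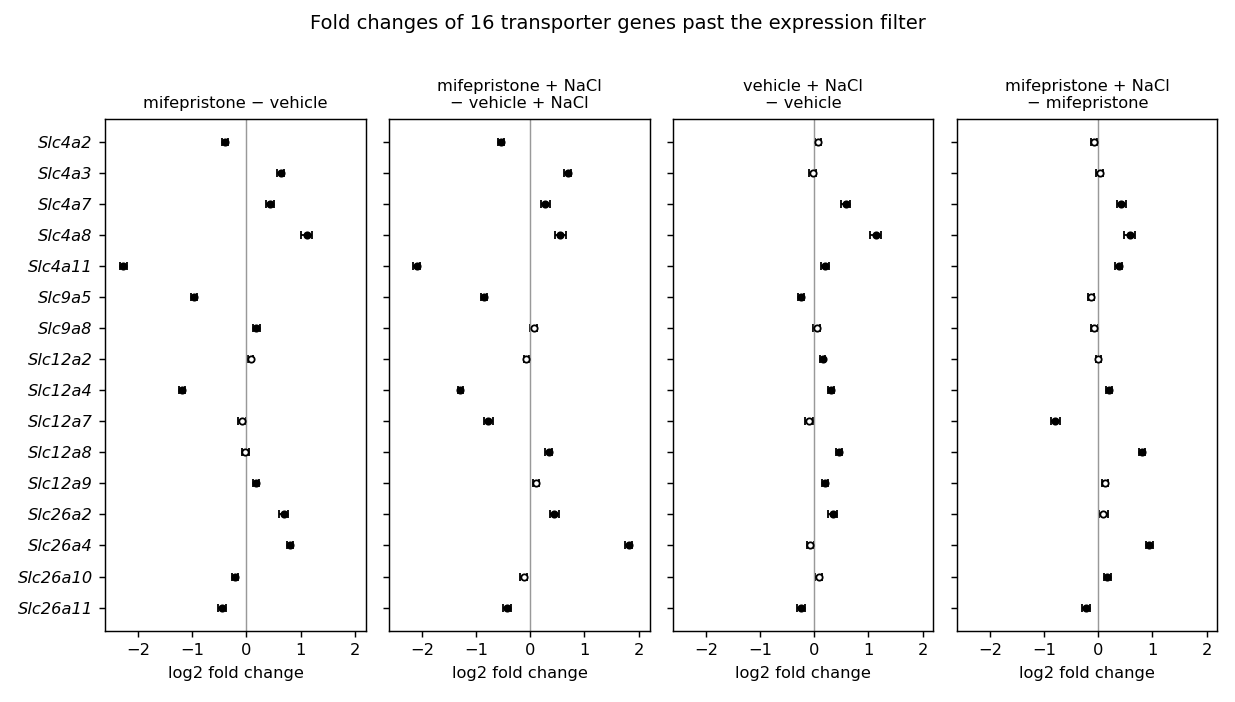
Log2 fold changes, on the log2(FPKM + 0.5) scale, of 16 of the 19 genes past the filter in 4 comparisons, with bars for the SE and filled points at an adjusted p under 0.05 (limma). Slc4a11, Slc12a4 and Slc9a5 lie left of 0 in both mifepristone comparisons, and Slc4a7 and Slc4a8 lie right of 0 in both NaCl comparisons.

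NaCl was compared with no added NaCl in vehicle cells to follow the hypertonic response. Of the 19 genes, 10 rose and 2 fell, against 25.2% and 31.5% of all genes tested, and 1 changed at least 2-fold, against 4.02%. The median log2 fold change was 0.16 over the 19 genes and -0.02 over all genes. Slc4a8 had 3.07, 3.60 and 3.33 FPKM in vehicle plus NaCl libraries, against 1.11, 1.24 and 1.39 FPKM in vehicle libraries, 2.19-fold higher (1.13, SE 0.096, adjusted p = 2.4e-06). Slc4a7, another sodium-coupled bicarbonate transporter, rose 1.499-fold (0.58, SE 0.081), at 7.79 ± 0.367 FPKM with NaCl and 5.03 ± 0.125 FPKM without. Slc12a8 rose 1.37-fold (0.46, SE 0.060) and Slc26a2 1.26-fold (0.34, SE 0.086).

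Smaller rises were seen for other genes in vehicle cells. Slc12a4 rose 1.24-fold (log2 fold change 0.31, SE 0.053), Slc4a11 1.15-fold (0.20, SE 0.065), Slc12a9 1.14-fold (0.19, SE 0.056) and Slc12a2 1.11-fold (0.15, SE 0.046). The call of Slc4a11 (adjusted p = 0.0227) was lost without vehicle A (0.0933) or vehicle plus NaCl B (0.0857) or C (0.058). That of Slc12a9 (adjusted p = 0.0129) was lost without vehicle A (0.0551) or vehicle plus NaCl B (0.0574), and that of Slc12a2 (adjusted p = 0.0141) without vehicle plus NaCl C (0.057). Slc9a5 fell 1.18-fold (-0.24, SE 0.057) and Slc26a11 1.19-fold (-0.25, SE 0.073), the call of Slc26a11 being lost without vehicle plus NaCl A (-0.19, adjusted p = 0.0557). Slc4a2, Slc4a3, Slc9a8, Slc12a7, Slc26a4 and Slc26a10 did not pass the test.

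In mifepristone cells, NaCl against none gave 8 genes that rose and 3 that fell, against 24.5% and 34.2% of all genes tested, and 0 changed at least 2-fold, against 5.16%. The pseudocount of 0.5 bears on this 0, since 2 of the 19 did so with a pseudocount of 0.1 and by voom, which gave Slc12a8 2.13-fold and Slc26a4 2.90-fold. The median log2 fold change was 0.10 over the 19 genes and -0.06 over all genes. Slc12a8 rose 1.75-fold (0.81, SE 0.060, adjusted p = 5.24e-07), at 2.11 ± 0.136 FPKM with NaCl and 0.985 ± 0.0452 FPKM without. Slc12a7 fell 1.73-fold (-0.79, SE 0.081, adjusted p = 8.53e-06), at 4.84 ± 0.309 FPKM with NaCl and 8.79 ± 1.15 FPKM without. The mifepristone libraries of Slc12a7 spread from 7.48 to 9.62 FPKM, and all lie above the highest mifepristone plus NaCl library at 5.18 FPKM.

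Slc4a8 rose 1.49-fold with NaCl in mifepristone cells (log2 fold change 0.58, SE 0.096), with 4.89, 4.95 and 5.57 FPKM in NaCl libraries, against 3.60, 3.52 and 2.76 FPKM without. Slc4a7 rose 1.34-fold (0.42, SE 0.081), Slc4a11 1.30-fold (0.38, SE 0.065) and Slc12a4 1.15-fold (0.20, SE 0.053). Slc26a10 rose 1.121-fold (0.17, adjusted p = 0.0407), a call near the threshold. It was lost on leaving out any of 8 of the 12 libraries, at most at an adjusted p of 0.15 without mifepristone A. Slc26a11 fell 1.17-fold (-0.23, adjusted p = 0.0195), a call lost without mifepristone B (adjusted p = 0.0735) or C (0.0546) or mifepristone plus NaCl A (0.0564). Slc9a5 did not pass (-0.13, adjusted p = 0.0659) but did without vehicle A (-0.13, adjusted p = 0.0477), mifepristone C (-0.18, adjusted p = 0.0198) or mifepristone plus NaCl C (-0.18, adjusted p = 0.0289).

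Across both NaCl comparisons, 6 genes rose in both (Slc4a7, Slc4a8, Slc4a11, Slc12a4 and Slc12a8 among them), 1 fell in both (Slc26a11) and 0 were called in opposite directions. These comparisons share no library, but both take their spread from all 12 libraries. Here too the shares of all tested genes called in both were not taken, so the counts are not read as particular to these genes.

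The interaction, the mifepristone effect with NaCl minus that without, tested whether the treatments depend on each other. Of the 19 genes, 2 were called higher and 2 lower, against 13.6% and 17.5% of all genes tested, and 1 reached a 2-fold size, against 1.89%. The median was -0.08 over the 19 genes and -0.01 over all genes. Slc26a4 had the largest interaction, at 1.01 (SE 0.091, adjusted p = 1.5e-05), though it passed the filter through the mifepristone plus NaCl group alone. Slc12a8, the other one called higher, had 0.35 (SE 0.084, adjusted p = 0.00861), its mifepristone effect being 0.34 with NaCl and -0.02 without. Slc12a7 had -0.70 (SE 0.115, adjusted p = 0.00113), from a mifepristone effect of -0.78 with NaCl and -0.08 without. Slc4a8 had -0.56 (SE 0.136, adjusted p = 0.0102), from 0.56 with NaCl and 1.11 without, so that its rise in fold with mifepristone was smaller with NaCl. In mean FPKM mifepristone took Slc4a8 from 1.25 to 3.29 without NaCl and from 3.33 to 5.14 with it, so its interaction depends on the log2 scale.

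The number of interactions called among the 19 genes was larger without mifepristone C. Then 9 were called, and without vehicle A and mifepristone C together 8, against 4 with all libraries. The share of all genes called in these settings was not taken, so the larger number is not read as particular to these genes. The genes gained without mifepristone C included Slc4a2 (-0.19, adjusted p = 0.042), Slc4a7 (-0.27, adjusted p = 0.00884), Slc12a2 (-0.21, adjusted p = 0.00217) and Slc26a2 (-0.35, adjusted p = 0.00918). These 4 have a negative sign, a mifepristone effect that is lower with NaCl than without. The 4 interactions called with all libraries kept their call without each of the 12 libraries in turn, but that of Slc26a4 was just under a 2-fold size without vehicle A (0.98), mifepristone C (0.98) or mifepristone plus NaCl A (0.99).

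**Figure D4:**
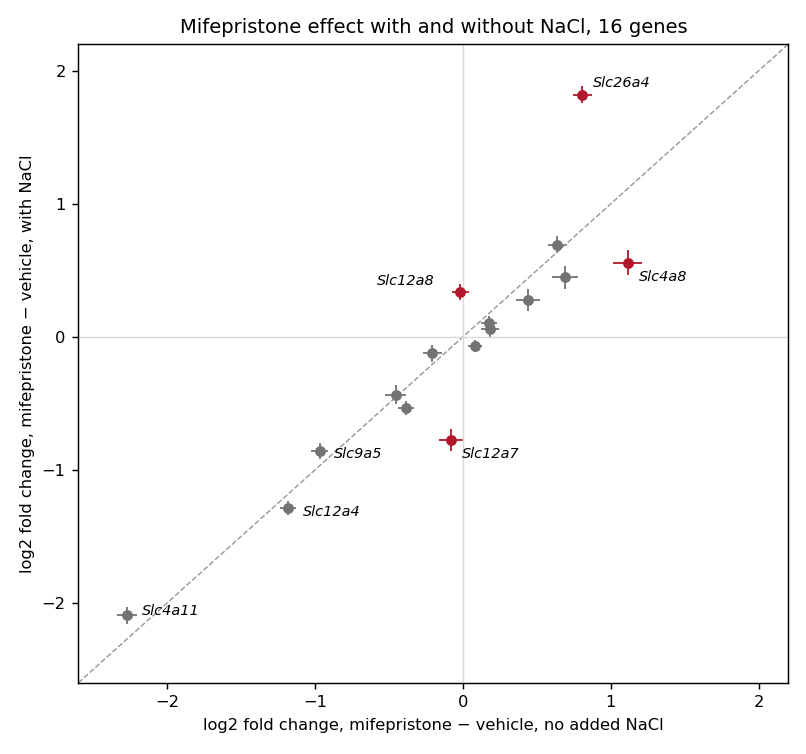
Log2 fold change of mifepristone against vehicle with NaCl (y axis) and without (x axis) for 16 of the 19 genes, on the log2(FPKM + 0.5) scale, with bars for the SE, a dashed line of equal effects and red points for an interaction with adjusted p under 0.05. Slc26a4 and Slc12a8 lie above the line, Slc12a7 and Slc4a8 below it, and Slc4a11 and Slc12a4 near it at the lower left.

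Slc26a4, the pendrin gene (ENSMUSG00000020651, chr12:31519827-31559969, minus strand), has too few fragments for the log2(FPKM + 0.5) scale to show its size, so reads are given. It had 199, 178 and 198 reads in mifepristone plus NaCl libraries and 68, 71 and 65 reads in mifepristone libraries, against 5, 3 and 3 reads in vehicle plus NaCl libraries and 10, 6 and 6 reads in vehicle libraries. In FPKM these were 1.41, 1.38 and 1.29, then 0.486, 0.488 and 0.426, against 0.0364, 0.0217 and 0.0207, and 0.0751, 0.0436 and 0.0401. The 4 groups do not overlap: mifepristone with NaCl is highest, mifepristone next, then vehicle, and vehicle with NaCl lowest.

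By voom on the recovered reads, mifepristone raised Slc26a4 8.66-fold without NaCl (log2 fold change 3.12, SE 0.254, adjusted p = 2.03e-07) and 46.9-fold with NaCl (5.55, SE 0.296, adjusted p = 2.65e-09). On the FPKM scale the same changes were 1.75-fold (0.81, SE 0.064) and 3.53-fold (1.82, SE 0.064), which understates a gene near 0. Slc26a4 passed the read filter through its mifepristone groups, so a rise with mifepristone was built into its inclusion in voom too. The 46.9-fold rests on 5, 3 and 3 reads in vehicle plus NaCl libraries, at or near the upper limit for a gene without reads. NaCl raised Slc26a4 2.90-fold in mifepristone cells (voom 1.54, SE 0.115). In vehicle cells NaCl gave -0.90 (SE 0.373, adjusted p = 0.0574), which passed at 0.0411 when voom was run on the genes of the FPKM filter. The interaction was 2.44 by voom (SE 0.390, adjusted p = 0.000556). The summed intercalated cell markers, Slc4a1 and Slc26a4 not counted among them, ranged from 0.499 to 0.793 FPKM with mifepristone and NaCl and from 1.102 to 1.21 FPKM with mifepristone, against 0.041 to 0.119 FPKM with vehicle and NaCl and 0.263 to 0.326 FPKM with vehicle. These sums stood higher with mifepristone, as Slc26a4 did, but lower with NaCl in mifepristone cells, where Slc26a4 rose. With mifepristone they were mostly of Atp6v1b1 and Aqp6, not of the markers as a set. Atp6v1b1 reached 0.999 and Aqp6 0.728 FPKM in a library, while Hmx2, the next, reached 0.053 and Foxi1 0.009 FPKM. The part of these markers in the Slc26a4 result was not tested.

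The 20 genes below the filter were followed in reads. A total of 9 of them had at least 10 reads in at least 3 libraries and were tested by voom together with the 19, over 18349 genes. With this test 20 of 28 genes were called with mifepristone without NaCl (55.5% of all genes tested) and 20 of 28 with NaCl (56.2%). NaCl gave 16 of 28 in vehicle cells (52.2%) and 18 of 28 in mifepristone cells (56.2%), and the interaction 10 of 28 (26.6%). The adjusted p-values of the next 3 paragraphs are from this test.

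Slc4a4, the electrogenic sodium-bicarbonate cotransporter NBCe1 known from the proximal tubule, fell with NaCl in both cell states. It had 39, 37 and 41 reads in mifepristone plus NaCl libraries and 351, 379 and 325 reads in mifepristone libraries, against 103, 91 and 102 reads in vehicle plus NaCl libraries and 318, 425 and 477 reads in vehicle libraries. NaCl lowered it 8.62-fold in mifepristone cells (log2 fold change -3.11, SE 0.203, adjusted p = 2.5e-08) and 4.08-fold in vehicle cells (-2.03, SE 0.145, adjusted p = 8.43e-08), and the difference passed the test (-1.08, SE 0.249, adjusted p = 0.00621). With NaCl, mifepristone lowered it 2.53-fold (-1.34, SE 0.226), whereas without NaCl the groups overlap (-0.26, adjusted p = 0.0505). Proximal tubule markers, 2 of 7 of which passed the filter, went the other way with NaCl. They summed to 139 to 147 FPKM with mifepristone and NaCl and 5.96 to 6.30 FPKM with mifepristone, against 430 to 443 FPKM with vehicle and NaCl and 39.1 to 41.9 FPKM with vehicle, nearly all of it the water channel gene Aqp1 (5.47 to 442.3 FPKM per library), while the defining factor Hnf4a had 0 to 3 reads. The part of these markers in the result was not tested.

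Slc4a1 (AE1, the band 3 exchanger of red cells and of acid-secreting intercalated cells) and Slc4a5 (NBCe2) were highest with both treatments. Slc4a1 had 45, 38 and 52 reads in mifepristone plus NaCl libraries and 8, 10 and 9 reads in mifepristone libraries, against 6, 4 and 9 reads in vehicle plus NaCl libraries and 5, 3 and 6 reads in vehicle libraries. Mifepristone raised it 6.88-fold with NaCl (log2 fold change 2.78, SE 0.268), NaCl raised it 4.95-fold in mifepristone cells (2.31, SE 0.242), and the interaction was 1.92 (SE 0.434, adjusted p = 0.00538). Slc4a1 passed the read filter only through its highest group. Slc4a5 had 25, 41 and 45 reads in mifepristone plus NaCl libraries and 5, 7 and 2 reads in mifepristone libraries, against 13, 10 and 19 reads in vehicle plus NaCl libraries and 4, 8 and 7 reads in vehicle libraries. NaCl raised it 8.08-fold in mifepristone cells (3.01, SE 0.441) and gave 1.09 (SE 0.451, adjusted p = 0.0583) in vehicle cells. Slc4a5 passed the read filter only through its NaCl groups, so a rise with NaCl was built into its inclusion.

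Slc4a9 (AE4, of bicarbonate-secreting intercalated cells) was lowest and Slc9a9 (NHE9, of endosomes) highest with mifepristone alone. Slc4a9 had 3, 6 and 2 reads in mifepristone libraries, against 13, 11 and 22 reads in vehicle libraries (log2 fold change -2.06, SE 0.444, adjusted p = 0.00143), while with NaCl both groups held 14 to 23 reads per library. Slc9a9 had 41, 55 and 43 reads in mifepristone libraries, against 17, 22 and 15 reads in vehicle libraries (1.29, SE 0.248, adjusted p = 0.000579), and with NaCl the 2 groups overlapped. The neuronal potassium-chloride cotransporter gene Slc12a5 (KCC2) had 37, 46 and 52 reads in mifepristone libraries, against 87, 126 and 125 reads in vehicle libraries (-1.37, SE 0.156), and fell less with NaCl present (-0.60, SE 0.147; interaction 0.77, adjusted p = 0.018). Slc26a8, known from male germ cells, rose with NaCl 3.26-fold in mifepristone cells and 2.24-fold in vehicle cells. The anion exchanger gene Slc26a6 rose 1.29-fold and 1.24-fold in these comparisons, and the sulfate transporter gene Slc26a1 rose 2.32-fold in vehicle cells (1.21, adjusted p = 0.0269).

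**Figure D5:**
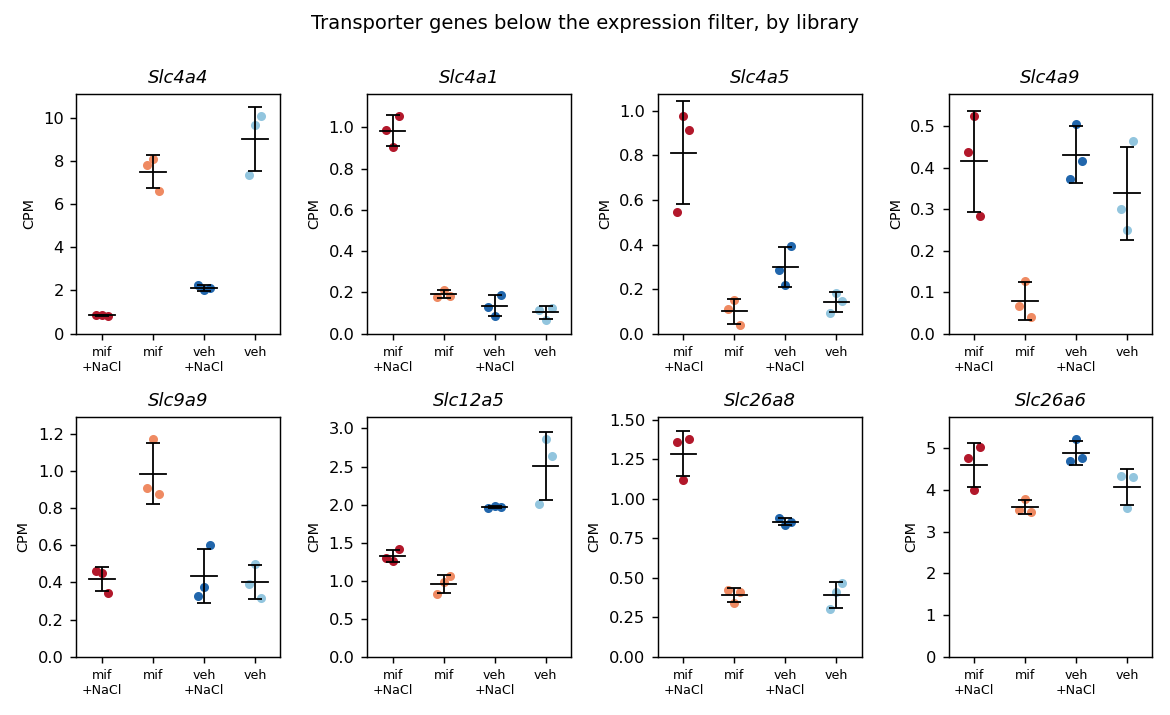
CPM in each library of 8 genes below the filter, with groups on the x axis, points for libraries, wide lines for the mean and bars for the SD of 3 libraries. Slc4a4 is low in both NaCl groups, Slc4a1 and Slc4a5 are high with mifepristone and NaCl, Slc4a9 is low and Slc9a9 high with mifepristone alone, and Slc26a8 is higher in both NaCl groups.

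The remaining 11 genes had at most 20 reads in any library. No read of Slc9a3 (NHE3, the exchanger of the proximal tubule brush border) was found in any of the 12 libraries, which allows up to 0.0715 CPM per library. Slc12a1 (NKCC2, of the thick ascending limb) had 30 reads over the mifepristone plus NaCl libraries and 8 over the mifepristone libraries, against 3 over the vehicle plus NaCl libraries and 0 over the vehicle libraries. Slc12a3 (NCC, of the distal convoluted tubule) had 10 and 16 reads over the same mifepristone groups, against 1 and 16 over the vehicle groups. Slc26a3, a chloride-bicarbonate exchanger gene that lies beside Slc26a4 at chr12:31390871-31473917, had 27 and 3 reads, against 3 and 1. Slc26a5 (prestin, the motor protein of outer hair cells) had 36 and 7 reads, against 3 and 2. Slc26a9 had 19 and 41 reads, against 12 and 7, and Slc26a7 had 17 and 10, against 8 and 5. Slc4a10, Slc9a2, Slc9a4 and Slc9a7 had 0 to 7 reads per library. These counts were not tested.

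The kinases and adaptors that act on these transporters were read from a list of 25 genes, 16 of which were tested. With mifepristone and no NaCl 6 rose and 8 fell, against 28.3% and 31.5% of all genes tested, with a median log2 fold change of -0.09, against -0.01 over all genes. With mifepristone in NaCl 4 rose and 9 fell, against 26.8% and 31.9%, with a median of -0.27, against -0.03. With NaCl in vehicle cells 8 rose and 2 fell, against 25.2% and 31.5%, with a median of 0.20, against -0.02. With NaCl in mifepristone cells 4 rose and 7 fell, against 24.5% and 34.2%, with a median of -0.09, against -0.06. Wnk4 encodes a kinase at the head of the WNK-SPAK cascade, which turns on NKCC and NCC cotransporters and turns off KCC cotransporters. It fell 3.91-fold with mifepristone in NaCl (-1.97, SE 0.050) and 2.99-fold without (-1.58, SE 0.050). It stood at 1.44 ± 0.098 FPKM with mifepristone and NaCl and 2.24 ± 0.0243 FPKM with mifepristone, against 7.07 ± 0.229 FPKM with vehicle and NaCl and 7.70 ± 0.397 FPKM with vehicle. Wnk1, which encodes another such kinase, stood higher, at 15.9 ± 1.80 FPKM with mifepristone and NaCl and 18.4 ± 3.77 FPKM with mifepristone. With vehicle and NaCl it stood at 18.7 ± 1.40 FPKM, and with vehicle at 14.9 ± 1.67 FPKM. Wnk1 was not called by limma with mifepristone in NaCl (-0.23, adjusted p = 0.187) or without (0.28, adjusted p = 0.111).

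Stk39, which encodes SPAK, the kinase downstream of WNK kinases, rose with NaCl 2.26-fold in mifepristone cells (log2 fold change 1.18, SE 0.055) and 3.75-fold in vehicle cells (1.91, SE 0.055). Its levels were 3.88 ± 0.279 FPKM with mifepristone and NaCl and 1.44 ± 0.102 FPKM with mifepristone, against 10.8 ± 0.272 FPKM with vehicle and NaCl and 2.52 ± 0.0546 FPKM with vehicle. Cab39l, an adaptor that activates SPAK, rose 2.44-fold (1.28, SE 0.063) and 2.61-fold (1.38, SE 0.063) in the same comparisons. Sgk1, the kinase induced by aldosterone and by cell shrinkage, rose with NaCl 17.1-fold in mifepristone cells (4.09, SE 0.045) and 11.6-fold in vehicle cells (3.53, SE 0.045). Slc9a3r2, a scaffold of NHE3, fell 2.11-fold with mifepristone without NaCl (-1.08, SE 0.092), and Ahcyl2, of the family that regulates bicarbonate cotransporters, fell 2.18-fold with mifepristone in NaCl (-1.13, SE 0.052). In the interaction 1 of the 16 regulators was called higher and 8 lower, against 13.6% and 17.5% of all genes tested, Sgk1 at 0.56 (SE 0.063) and Stk39 at -0.73 (SE 0.077) among them.

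Of 20 chloride channel genes, partners of the transporters in chloride traffic, 16 were tested. With mifepristone and no NaCl 6 rose and 6 fell, against 28.3% and 31.5% of all genes tested, and in NaCl 4 rose and 7 fell, against 26.8% and 31.9%. With NaCl 5 rose and 6 fell in vehicle cells, against 25.2% and 31.5%, and 3 rose and 7 fell in mifepristone cells, against 24.5% and 34.2%. Their median log2 fold changes in these 4 comparisons were 0.09, -0.12, -0.03 and -0.09, against -0.01, -0.03, -0.02 and -0.06 over all genes. Cftr, the cAMP-gated chloride channel, rose 3.75-fold with mifepristone without NaCl (log2 fold change 1.91, SE 0.086), at 3.54 ± 0.468 FPKM with mifepristone and 0.573 ± 0.0361 FPKM with vehicle. The pseudocount lowers this fold, as the ratio of the mean FPKM is 6.18. With vehicle and NaCl Cftr stood at 0.506 ± 0.0548 FPKM. It thus passed the expression filter through its mifepristone groups alone, so a rise with mifepristone was built into its inclusion. With NaCl in mifepristone cells Cftr fell 2.35-fold (-1.23, SE 0.086), to 1.21 ± 0.087 FPKM with NaCl, and its interaction was -1.14 (SE 0.122, adjusted p = 5.56e-05). Bsnd, the barttin subunit of kidney chloride channels, rose with NaCl in vehicle cells by 3.17 on the log2 scale (SE 0.072), at 9.37 ± 0.207 FPKM with NaCl and 0.597 ± 0.0378 FPKM without, a ratio of mean FPKM of 15.7. In mifepristone cells it rose 2.04-fold (log2 fold change 1.03, SE 0.072), at 3.90 ± 0.436 FPKM with NaCl and 1.66 ± 0.132 FPKM without. Mifepristone thus lowered Bsnd 2.25-fold in NaCl (-1.17, SE 0.072) and raised it 1.96-fold without NaCl (0.97, SE 0.072). Its interaction was -2.14 (SE 0.102, adjusted p = 2.12e-07). Lrrc8c, a subunit of the volume-regulated anion channel, fell 2.01-fold with NaCl in mifepristone cells (-1.01, SE 0.064). In the interaction 5 of the 16 channel genes were called by limma, each lower, against 17.5% of all genes called lower and 13.6% called higher.

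The authors' deposited table of the mutant against control gives an adjusted p-value under 0.05 for 4 of the 39 genes. In the authors' deposited table the log2 fold change was -2.39 for Slc4a11 (adjusted p = 1.99e-73), 2.76 for Slc26a4 (adjusted p = 1.99e-08), -1.28 for Slc12a4 (adjusted p = 0.000752) and 1.38 for Slc4a8 (adjusted p = 0.0214). For Slc9a5 the authors' deposited table gives -1.05 with an adjusted p of 1. The authors' deposited table of the NaCl response gives -3.00 in mutant cells and -1.99 in control cells for Slc4a4. For the interaction the smallest adjusted p of a member in the authors' deposited table is 0.932, for Slc26a4, at a size of 2.54.

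The authors' deposited table also marks genes with a ChIP peak nearby, without naming the factor or the distance in the sources used here. It marks 17 of the 38 member genes it lists (44.7%), against 5808 of its 32627 genes (17.8%). Among genes past the expression filter it marks 10 of 19 members (52.6%), against 3987 of 14044 genes (28.4%). Slc4a11, Slc26a4, Slc4a8, Slc12a7 and Slc12a8 carry the mark, and Slc12a4, Slc9a5 and Slc4a3 do not. The marked and unmarked members thus both include genes that fell by about 2-fold or more with mifepristone. Of the 4 interactions called by limma, those of Slc4a8, Slc12a7, Slc12a8 and Slc26a4, all are of marked genes, and whether marked genes differ in this was not tested.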

How the data were processed

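The submitters' processing notes name Trimmomatic 0.32, STAR 2.4.2a, SAMtools 1.0 and DESeq2 1.12.3, and the build GRCm38 (mm10), with no role or order. How reads were counted, with which annotation and whether by strand, is not given in the sources used here. The authors deposited FPKM values per gene and library. Their comparison tables, as deposited, give per gene a mean signal that the file headers call normalized counts, a log2 fold change and adjusted p-values, and a mark of a nearby ChIP peak. Columns named Control match titles. Columns named for the mutant were assigned to the mifepristone samples from their NaCl part and letter and from what is known of the study.

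The test was limma 3.58.1 (R 4.3.3, trended and robust empirical Bayes) on log2(FPKM + 0.5) for the 14044 genes that reached an FPKM of 1 in 3 libraries or more, with a mean for each of the 4 groups and 8 residual degrees of freedom. Adjustment was by Benjamini and Hochberg over all genes tested, and a call is an adjusted p under 0.05. Fold changes on this scale understate changes of low genes. Whole reads were recovered from FPKM, the mean signal and the size of 1 read in each library (100.0% of values whole within 0.05), and limma's voom was run on them with the authors' scaling, for genes with at least 10 reads in 3 libraries. The script was checked on simulated data. Libraries of a group were not duplicates (chi-square per gene of 2.13 to 43.3). Mifepristone C differed most from its group, at 43.3 from A and 33.1 from B, against 2.82 between A and B. Vehicle A and C gave 20.1. Gene positions and exons come from GENCODE M21.

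The members, the lists of regulators, channels and markers, and the tests were chosen with earlier results of these data known. Values of every library are given for members called with at least a 2-fold change in any comparison and for the member of each family with the highest mean FPKM. Regulators and channels called with at least a 2-fold change are named, up to 6 per list. Values of 3 tested members are not reported here, though counts include them. Other genes and spreads named were chosen after their values were seen. Alternatives were pseudocounts of 0.1 and 1, no filter, a mean FPKM of at least 5, median-ratio and quantile scaling, a replicate block, voom, each library left out, and, chosen after seeing the data, voom with the filter of 10 reads and dropping the pair of vehicle A and mifepristone C. Python 3.11.15, pandas 2.3.3, numpy 2.4.6 and matplotlib 3.10.9 were used.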

Additional observations from a re-analysis of the deposited data

Results flagged for a closer look

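The mifepristone effect differed between media with and without NaCl, by the limma interaction test, for 4 of the 19 tested genes. Slc26a4 had an interaction of 1.01 (log2, SE 0.091, adjusted p = 1.5e-05), its mifepristone effect being 1.82 with NaCl and 0.81 without. It passed the expression filter through the mifepristone plus NaCl libraries alone, the group that enters this difference, so its inclusion is tied to the result. Slc12a8 had 0.355 (SE 0.084, adjusted p = 0.00861), with effects of 0.34 and -0.02. Slc12a7 had -0.70 (SE 0.115, adjusted p = 0.00113), with effects of -0.78 and -0.08. Slc4a8 had -0.56 (SE 0.136, adjusted p = 0.0102), with effects of 0.56 and 1.11. Each of the 4, with that limit for Slc26a4, was called without each library in turn and in the other settings that tested it.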

How the results depend on the processing

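Over 1720 recomputed values of 16 of the 19 genes, 1654 kept their direction and side of the threshold, 31 lost and 21 gained a call, and 14 reversed, each of these a difference not called with all libraries. With the replicate block the numbers called were 16, 15, 12, 9 and 4 (mifepristone without and with NaCl, NaCl in vehicle and in mifepristone cells, interaction), against 16, 15, 12, 11 and 4 without it, that of Slc26a10 with NaCl in mifepristone cells being among those lost. The letters do not pair the libraries: same-letter deviations correlated at -0.5 to 0.288.

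A mean FPKM of at least 5 left 10 members, with 8, 8, 7, 5 and 1 called and 0 changed at least 2-fold with NaCl in vehicle cells and in the interaction. With no filter 23, 20 and 10 were called (mifepristone with NaCl, NaCl in mifepristone cells, interaction), and 1 changed at least 2-fold with NaCl in mifepristone cells. A pseudocount of 0.1, and voom, gave 5 and 2 genes changed at least 2-fold (mifepristone without NaCl, NaCl in mifepristone cells), and a pseudocount of 1 gave 0 with NaCl in vehicle cells and 0 in the interaction. With voom and the read filter, which tested 28 members, 8, 6, 4, 8 and 6 changed at least 2-fold. Of the 28, 18 and 10 were called with NaCl in mifepristone cells and in the interaction, against 56.2% and 26.6% of all genes. Apart from calls by voom with the read filter, shares of all genes were not taken for counts under alternatives. Changes in these counts are thus not read as particular to these genes.

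Leaving out 1 library gave 14 to 17, 15 to 16, 10 to 12, 8 to 11 and 4 to 9 called, and 3 to 4, 3 to 3, 1 to 1, 0 to 0 and 0 to 1 changed at least 2-fold. Without vehicle A and mifepristone C together 8 interactions were called, 0 at least 2-fold. Slc12a7 with NaCl in vehicle cells (-0.14, adjusted p = 0.036) and Slc4a2 with NaCl in mifepristone cells (-0.12, adjusted p = 0.0244) also passed limma in that setting. Reversals on leaving out 1 library fell, on the log2 scale, within -0.0424 to 0.0694 (Slc4a3), -0.0567 to 0.0333 (Slc12a2) and -0.0093 to 0.168 (Slc26a2) for NaCl in mifepristone cells. They fell within -0.146 to 0.0256 (Slc12a7) and -0.0525 to 0.0083 (Slc12a8) for mifepristone without NaCl, and within -0.0117 to 0.1 (Slc4a3) and -0.0544 to 0.0916 (Slc26a11) for the interaction. Without vehicle A and mifepristone C together the first 3 were -0.0424, -0.0567 and -0.0093, and quantile scaling gave -0.0176 for the Slc26a11 interaction. Single members not shown under an alternative were below its filter. The cause was not tested. Members with few reads are limited by depth, since 3 reads equal at most 0.0715 CPM.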
